A study of Mus musculus with 6 samples.

Results

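The let-7 family is the group of microRNAs that carry the seed GAGGUAG, and 8 mouse hairpins of the family were read here at single-base resolution: let-7b (gene symbol Mirlet7b), let-7d (Mirlet7d), let-7f-1 (Mirlet7f-1), let-7a-1 (Mirlet7a-1), let-7e (Mirlet7e), let-7g (Mirlet7g), let-7i (Mirlet7i) and miR-98 (Mir98). Each member was taken by coordinate, as all same-strand 5′ ends from 60 nt before to 120 nt after the first base of the mature microRNA. They are counted among the 153 microRNA hairpins that were located by their own tags, out of 1005 hairpins listed by RefSeq. For let-7a-1 and let-7f-1, however, nearly all mature tags were also listed at a partner locus with the same mature sequence. At 6 of the 8 loci tags marked a 5′ end on the last base of the annotated arm opposite the mature microRNA. The level of that end relative to the mature start differed widely between the tissue libraries, and in let-7b it was 9.83 times as high in lung as in kidney.

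The study surveyed 5′-monophosphate ends of polyadenylated RNA in whole brain, lung, liver, kidney, ovary and spleen of adult mice of BALB-c background, by parallel analysis of RNA ends (PARE). An adaptor was ligated to 5′-monophosphate ends of RNA selected on oligo(dT), reverse transcription was primed with oligo(dT), and the enzyme MmeI cut the product to a tag of about 20 nt that begins at the RNA's 5′ end. No treatment or genotype distinguishes the groups, each tissue is 1 library, the labels do not say how many animals gave the RNA, and the protocol text names its RNA input only for brain, liver and lung. The 6 libraries are therefore described side by side with no test between tissues.

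A let-7 gene is transcribed as a long primary transcript with a cap and a poly(A) tail. The nuclease Drosha cuts both strands at the base of the hairpin. One cut makes the 5′ end of the future mature microRNA, which lies on the 5′ arm in this family. The other cut frees a 3′ fragment that keeps the poly(A) tail and begins with a 5′ monophosphate, and Dicer later removes the loop of the hairpin. Most let-7 precursors are known for a shorter 3′ overhang than other precursors have and for the addition of a single uridine before Dicer acts, and let-7e is outside that group. Mature let-7 represses growth-promoting and stem cell genes such as Lin28 and Hmga2 in differentiated tissue.

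The mature sequences that fix the windows are shown from 5′ to 3′ with the seed, bases 2 to 8, in capitals. They are the mature sequences of the RefSeq microRNA table for build GRCm38.p6, and all 8 share 1 seed.
let-7b: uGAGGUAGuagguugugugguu
let-7f-1: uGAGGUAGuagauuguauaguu
let-7a-1: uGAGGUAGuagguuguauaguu
let-7d: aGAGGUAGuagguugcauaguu
let-7e: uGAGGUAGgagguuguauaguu
let-7g: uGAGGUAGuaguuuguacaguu
let-7i: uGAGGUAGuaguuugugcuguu
miR-98: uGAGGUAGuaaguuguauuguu

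The junctions below show where the after-hairpin tags began, for the 6 loci that had any. Lower case is the RefSeq 3p arm without its last base. Capitals are the commonest deposited tag at the strongest after-hairpin end, and its first base is the last base of the annotated arm.
let-7b: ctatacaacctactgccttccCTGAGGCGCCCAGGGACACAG
let-7f-1: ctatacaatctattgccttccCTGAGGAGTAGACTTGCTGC
let-7a-1: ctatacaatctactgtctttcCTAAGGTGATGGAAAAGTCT
let-7d: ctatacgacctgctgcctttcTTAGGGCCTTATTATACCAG
let-7i: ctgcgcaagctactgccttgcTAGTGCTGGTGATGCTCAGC
miR-98: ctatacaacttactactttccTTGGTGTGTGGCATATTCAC

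The let-7b tag shown was read 1161 times, the let-7f-1 tag 454 times, the let-7a-1 tag 24 times, the let-7i tag 11 times, the miR-98 tag 4 times and the let-7d tag 3 times. Each capital run leaves the annotated hairpin within its length. The first 4 bases of the let-7b tag, 5 of the let-7f-1 tag and 3 of the let-7i tag belong to the RefSeq hairpin. So do the first 10 bases of the let-7a-1 tag, 13 of the let-7d tag and 14 of the miR-98 tag.

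Unique tags, those listed at 1 location, numbered 29213 in ovary, 33382 in brain, 42939 in spleen, 78952 in liver, 162270 in kidney and 493121 in lung. Levels are tags per 1000000 unique tags of the library (CPM), and a count of 0, taken to allow 3 tags, leaves room for 102.7 CPM in ovary, 89.9 in brain, 69.87 in spleen, 38 in liver, 18.5 in kidney and 6.08 in lung. The 95% intervals treat each tag as an independent count and cover counting error only, with no variation between animals because each tissue is 1 library. PCR reads without molecular identifiers are not independent molecules, so the intervals may be too narrow even for counting error. In RNA of whole tissue, fewer cells of a type and less RNA per cell cannot be told apart. Tissue identity was checked with lists of microRNA hairpins, and no list was specific to kidney or ovary. The blood cell list (miR-142, miR-223 and miR-451a located) stood at 1211 CPM in spleen, 768.6 in lung and 126.7 to 205 elsewhere. Endothelial miR-126a was at 620.5 CPM in lung and at 0 in spleen. The hepatocyte list's located hairpin, miR-192, had 63.3 CPM in liver (5 tags) and 67.8 in kidney (11 tags). It thus did not set liver apart from kidney. Of the neuron list the miR-128 hairpins were located, with 0 unique tags in every library, and 1 mature miR-128 tag was found in brain and 0 elsewhere, too few to check the brain label. The smooth muscle list had no located hairpin, and the part of cell composition in the let-7 values was not tested.

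The 8 windows held 4236 unique tags on 26 distinct ends. Tags within 1 nt of the mature starts numbered 2201, after-hairpin tags, which began no more than 1 nt from the base that follows the 3p arm, numbered 2007 (1604 of them in lung), and 28 tags (0.661%) lay at neither place. The opposite strand of the windows held 0 tags. With sequences listed at 2 locations included, the windows held 4816 tags, of which 2779 were at mature starts and 2776 of those at the exact first base.

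The listing of sequences at 2 locations matters for 2 members, let-7a-1 and let-7f-1. Over the libraries 30843 sequences were listed at 2 locations, and in all 30843 cases the locations lay on opposite strands, with none on the same strand. The mature let-7a sequence is also encoded at let-7a-2, on the plus strand of chromosome 9, and 386 of the 387 mature let-7a tags were listed at both loci. The mature let-7f sequence is also encoded at let-7f-2, on the plus strand of chromosome X, and all 191 mature let-7f tags were listed at both. These mature tags are therefore given as listed and may belong to either copy, while every after-hairpin tag counted is unique. At the partner loci let-7a-2 and let-7f-2, 0 tags lay at the after-hairpin position. Both copies of let-7c lie on the plus strand, and 0 tags read as mature let-7c. Since no sequence was listed at 2 locations of the same strand, this 0 does not show that let-7c was lacking.

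Family members that differ by a single base could be told apart. Mature let-7e differs from let-7a at 1 of the first 20 bases, and 93 tags matched let-7e exactly, while the commonest single substitution among let-7a tags had 2 tags. At the let-7b start 95.3% of 1839 tags matched the reference exactly, of which the 20-nt tags (946 of the 1839) and the 21-nt tags (893) were nearly equal in number. At the let-7b after-hairpin end 97.9% of 1360 tags matched.

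let-7b, on the plus strand of chromosome 15 with its mature start at position 85537755 (mm9), gave most of the signal. Its after-hairpin tags numbered 1076 in lung, 153 in kidney, 72 in ovary, 32 in brain, 36 in liver and 7 in spleen. As levels these were 2182 CPM in lung, 943 in kidney, 2465 in ovary, 959 in brain, 456 in liver and 163 in spleen. Ovary and lung stood highest and could not be separated by counting error (ratio 1.13, interval 0.877 to 1.43), and spleen was lowest. With another scaling of depth, the trimmed mean of M values (TMM), the ratio of ovary over lung was 0.430 instead. TMM weighs the libraries by their shared windows, those with a tag in both the library and a reference library. Its factors were largest in the shallowest libraries, brain (1.637) and ovary (1.488), and smallest in lung (0.5664), the deepest. Whether depth itself shaped these factors was not tested. The order of ovary and lung thus depends on the scaling.

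The mature start of let-7b had another order. Its tags numbered 685 in lung, 957 in kidney, 56 in ovary, 78 in brain, 56 in liver and 7 in spleen. The levels were 1389 CPM in lung, 5898 in kidney, 1917 in ovary, 2337 in brain, 709 in liver and 163 in spleen. Kidney stood alone at the top, 2.52 times brain (interval 2.002 to 3.22) and 4.25 times lung (3.85 to 4.69), and with TMM scaling it was 2.94 times lung.

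**Figure D1:**
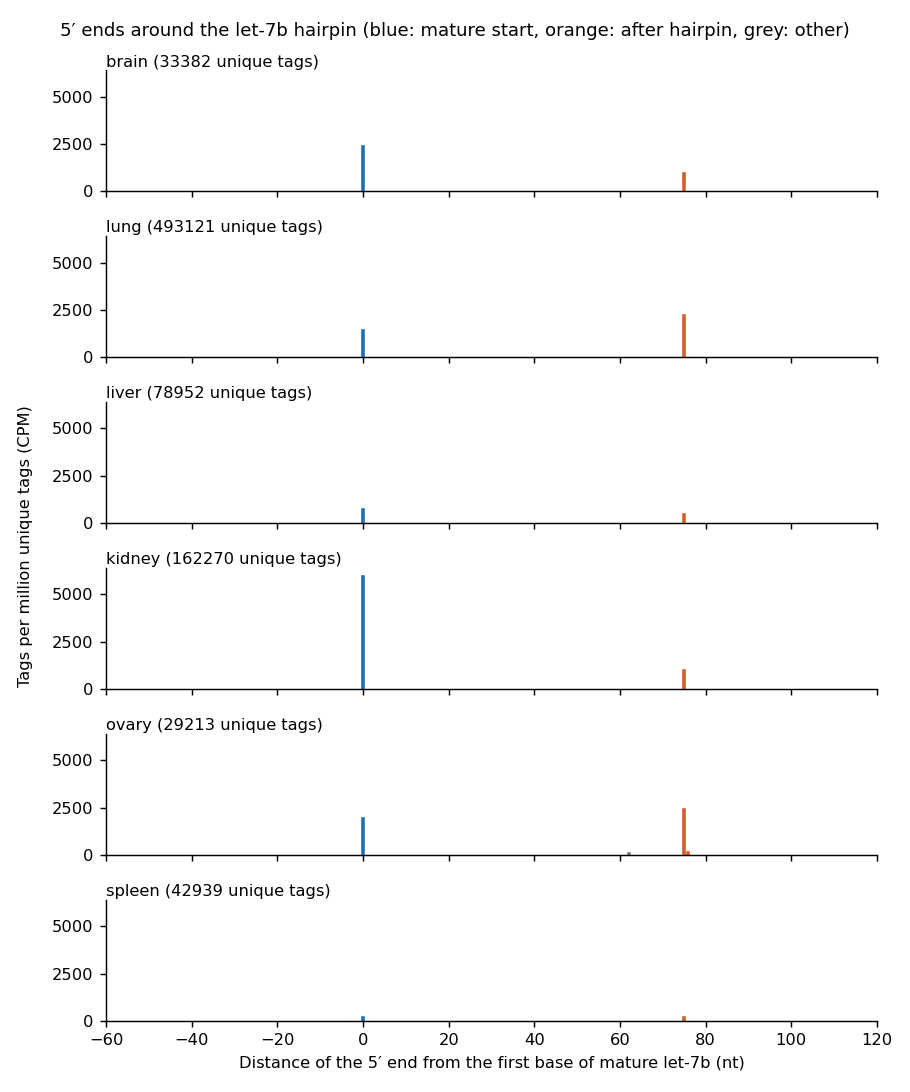
5′ ends in the let-7b window by library; the x axis is the distance from the first mature base in nt, the y axis tags per 1000000 unique tags (CPM). Tags concentrate at the mature start (0 nt, blue) and 75 nt later (orange), with the mature start far ahead in kidney (5898 CPM) and the after-hairpin end ahead in lung (2182 CPM against 1389).

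The after-hairpin end of let-7b was sharp. Of 1376 tags, 1360 began at position 85537830, which is 75 nt after the mature start, and 16 began at the next base. It ranked as the end with the 17th most tags among 449338 unique ends of the series, and 13th among 270960 ends in lung. Among other positions of the window, an end 41 nt before the mature start (position 85537714) had 11 tags, all in lung, and an end 62 nt after it (position 85537817) had 5 tags, of which 2 were in lung, 2 in ovary and 1 in kidney.

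let-7f-1 lies on the minus strand of chromosome 13 with its mature start at position 48633279. Its after-hairpin tags numbered 487 in lung, 50 in kidney, 28 in ovary, 6 in brain, 6 in liver and 2 in spleen. The levels were 988 CPM in lung, 308 in kidney, 958.5 in ovary, 179.7 in brain, 76 in liver and 46.6 in spleen. As in let-7b, lung and ovary were the highest and did not differ beyond counting error (ratio of lung over ovary 1.03, interval 0.704 to 1.57), and with TMM scaling the ratio was 2.71. Lung stood 3.21 times above kidney (interval 2.39 to 4.38). Of 579 tags 578 began at position 48633202, 77 nt after the mature start, which was the 43rd strongest end of the series.

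Mature let-7f tags, which may come from either gene copy, numbered 59 in lung, 88 in kidney, 5 in ovary, 27 in brain, 10 in liver and 2 in spleen. The levels were 119.6 CPM in lung, 542 in kidney, 171 in ovary, 809 in brain, 127 in liver and 46.6 in spleen. Brain and kidney were highest, and their ratio of 1.49 had an interval that includes 1 (0.931 to 2.32). With TMM scaling kidney was the higher of them (663 against 494 scaled CPM). Lung was thus at the top for the after-hairpin end, with ovary close to it by unique depth. At the mature start lung was below brain and kidney with either scaling. Its place against liver and ovary depended on the scaling, since with TMM lung (211 scaled CPM) stood above liver (169.5) and ovary (115).

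let-7a-1, 350 nt upstream of let-7f-1 on the same strand (mature start 48633629), had few after-hairpin tags. They numbered 26 in lung, 2 in ovary, 2 in spleen and 0 in brain, liver and kidney, all at position 48633557. The lung level was 52.7 CPM (interval 34.4 to 77.25), and the 0 tags in kidney were taken to allow 18.5 CPM. The lung level was 2.85 times that allowance, a figure that leaves out the counting error of lung. Mature let-7a tags numbered 152 in lung, 133 in kidney, 24 in ovary, 51 in brain, 24 in liver and 3 in spleen, or 308, 819.6, 822, 1528, 304 and 69.9 CPM in the same order. By unique depth brain was highest, 1.86 times ovary (interval 1.12 to 3.16), and with TMM scaling kidney (1002 scaled CPM) stood above brain (933.5).

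let-7d, on the same strand with its mature start at 48631468, had 1 after-hairpin tag in lung and 3 in kidney, all at position 48631393, and none in the other libraries. Its mature start had 52 tags in lung, 67 in kidney, 7 in ovary, 12 in brain, 4 in liver and 0 in spleen. These are levels of 105.5 CPM in lung, 413 in kidney, 239.6 in ovary, 359.5 in brain and 50.7 in liver. Mature-start tags of let-7d were thus common where its after-hairpin tags were nearly missing.

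The 3 loci on chromosome 13 are neighbours in the order let-7a-1, let-7f-1, let-7d, with mature starts 350 and 1811 nt apart. Their after-hairpin tags were very unequal, with let-7f-1 giving 94.5% (interval 92.3 to 96.1), let-7a-1 4.89% and let-7d 0.653% of the sum. The 274 nt between let-7a-1 and let-7f-1 held 0 unique tags. The 1730 nt between let-7f-1 and let-7d held 2. Whether the loci are processed from 1 transcript was not measured here.

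let-7i, on the minus strand of chromosome 10 (mature start 122422775), had 11 after-hairpin tags in lung and 3 in spleen, all at position 122422698, and 0 elsewhere. Its mature start had 30 tags in lung, 5 in kidney, 1 in ovary, 7 in brain, 0 in liver and 0 in spleen. Spleen was the only library with after-hairpin tags and no mature tag of let-7i, at a count of 3.

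miR-98, a family member under another name, lies on the plus strand of chromosome X (mature start 148347772). Its after-hairpin end at position 148347851 had 3 tags in lung and 1 in spleen. Its mature start had 17 tags in lung, 2 in kidney, 1 in ovary, 7 in brain, 1 in liver and 0 in spleen. Brain was highest with 209.7 CPM against 34.5 in lung (ratio 6.08, interval 2.13 to 15.4).

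let-7e and let-7g had mature tags and no after-hairpin tag in any library. let-7e, on the plus strand of chromosome 17 (mature start 17967330), had 47 mature tags in lung, 19 in kidney, 3 in ovary, 23 in brain, 3 in liver and 0 in spleen. Its brain level of 689 CPM was 5.88 times that of kidney (interval 3.07 to 11.4). With TMM scaling brain (421 scaled CPM) stayed above kidney (143.2), by a smaller ratio. let-7g, on the plus strand of chromosome 9 (mature start 106081177), had 21 mature tags in lung, 15 in kidney, 5 in ovary, 7 in brain, 2 in liver and 4 in spleen. In the deepest library, lung, 0 after-hairpin tags allow up to 6.08 CPM at either locus, and the upper bound of the after-hairpin share over all libraries was 3.85% of 94 unique window tags for let-7e and 6.60% of 54 for let-7g.

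**Figure D2:**
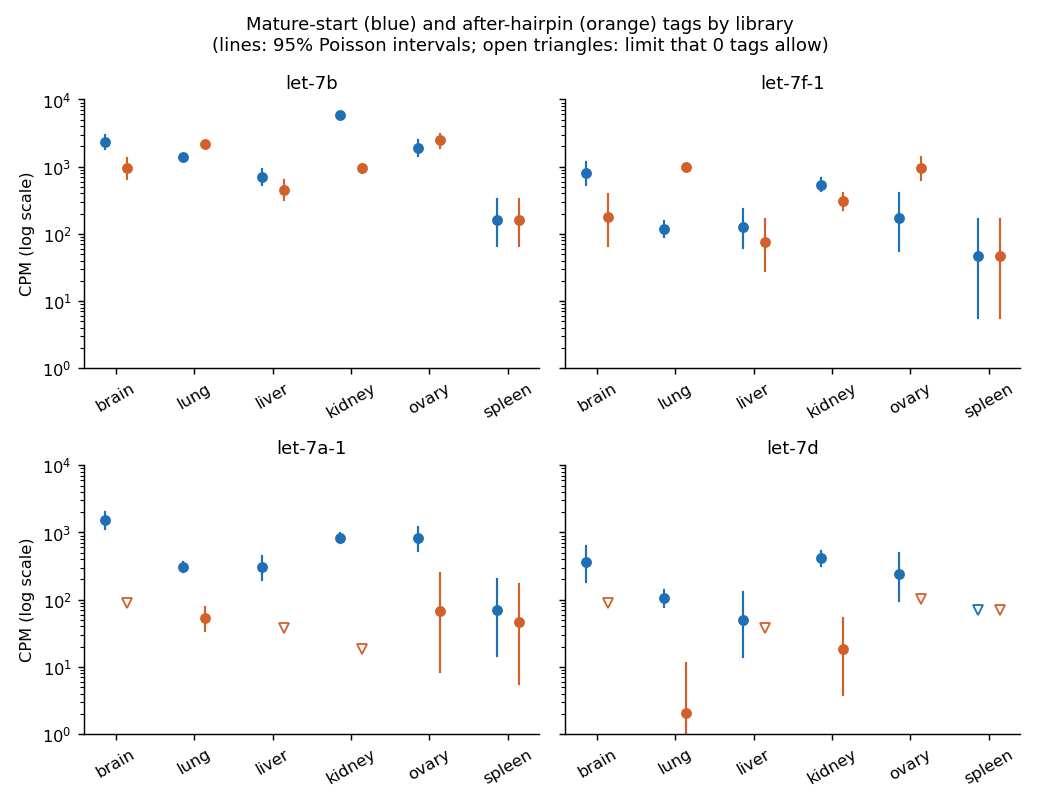
Levels in CPM, on a log scale, of the mature start (blue) and the after-hairpin end (orange) in the 6 libraries for let-7b, let-7f-1, let-7a-1 and let-7d; lines are exact 95% Poisson intervals and open triangles the limit that 0 tags allow. The orange points exceed the blue ones in lung and ovary for let-7b and let-7f-1 only, while in let-7a-1 and let-7d no library has orange above blue.

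Summed over the 8 loci, the after-hairpin level was 3253 CPM in lung (1604 tags), 1269 in kidney (206), 3492 in ovary (102), 1138 in brain (38), 532 in liver (42) and 349 in spleen (15). Ordered by level, the neighbours that did not differ beyond counting error were ovary and lung (ratio 1.07, interval 0.870 to 1.31), kidney and brain (1.12, 0.786 to 1.62), and liver and spleen (1.52, 0.827 to 2.96). let-7b gave 46.7% of the sum in spleen, 67.1% in lung and up to 85.7% in liver. Mature starts, as listed, summed to 2156 CPM in lung, 7925 in kidney, 3492 in ovary, 6351 in brain, 1267 in liver and 373 in spleen. Kidney stood at 1.248 times brain (interval 1.08 to 1.45) and at 3.68 times lung (3.39 to 3.99). TMM scaling widened kidney over brain to 2.498 at the mature starts and from 1.12 to 2.23 at the after-hairpin ends. It also put lung (5742 scaled CPM) above ovary (2346) at the after-hairpin ends.

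The after-hairpin share, after-hairpin tags divided by after-hairpin plus mature-start tags of the same locus and library, needs no scaling between libraries. For let-7b it was 61.1% in lung (interval 58.8 to 63.4), 13.8% in kidney (11.8 to 15.95), 56.25% in ovary (47.2 to 65), 29.1% in brain (20.8 to 38.5), 39.1% in liver (29.1 to 49.9) and 50% in spleen (23.0 to 76.96). Kidney was lowest and its interval overlaps that of no other library, while lung, ovary and spleen overlap each other. For let-7f-1, with mature tags as listed, the share was 89.2% in lung (interval 86.3 to 91.7), 36.2% in kidney (28.2 to 44.8), 84.85% in ovary (68.1 to 94.9), 18.2% in brain (6.98 to 35.5), 37.5% in liver (15.2 to 64.6) and 50% in spleen (6.76 to 93.2). Lung and ovary again stood above brain and kidney. If some of the mature tags belong to let-7f-2, the share of let-7f-1 alone would be higher than these values.

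**Figure D3:**
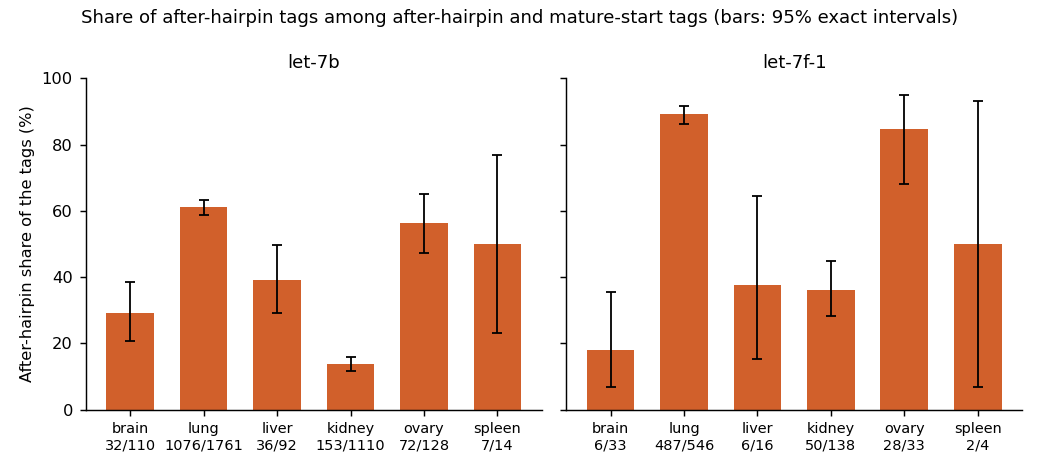
After-hairpin share in percent of after-hairpin plus mature-start tags, by library, for let-7b and let-7f-1 (mature tags as listed); bars are shares, whiskers exact 95% Clopper-Pearson intervals, and the tag counts stand under each bar. Lung (61.1% and 89.2%) and ovary (56.25% and 84.85%) are the highest in both panels, and the spleen whiskers span most of the axis.

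Expressed as after-hairpin tags per mature-start tag, let-7b had 1.57 in lung, 1.29 in ovary, 0.643 in liver, 0.410 in brain and 0.160 in kidney. Lung over kidney was 9.83-fold (interval 8.05 to 12.0), lung over brain 3.83-fold (2.47 to 6.04) and lung over liver 2.44-fold (1.56 to 3.87). The interval of lung over ovary included 1 (1.22-fold, 0.834 to 1.78), as did that of lung over spleen. For let-7f-1, with mature tags as listed, lung over kidney was 14.5-fold (9.14 to 23.1) and lung over ovary 1.47-fold (0.428 to 4.07). Lung over brain was 37.1-fold (14.1 to 113), with 6 after-hairpin tags in brain. All mature let-7f tags were listed at let-7f-2 too, and the part of that copy in these contrasts was not tested. let-7d gave no such contrast at its depth, with lung over kidney at 0.430-fold (0.00803 to 5.56). The RNA behind a mature-start tag (mature microRNA, precursor or a longer fragment) cannot be told apart from a tag of this length.

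The lung and kidney levels at mature starts and after-hairpin ends can be set against all ends. A count of 0 was set to the 3 tags it allows. Of 1712 unique ends with at least 20 tags in lung and kidney together, 20.8% were at least 2-fold higher in kidney and 60.3% at least 2-fold higher in lung. Lung is the deeper library, and 77.1% of these ends reached the minimum in lung alone. Of the 7 members whose mature start reached that depth, 5 were at least 2-fold higher in kidney (let-7f-1 4.53-fold, let-7b 4.25-fold, let-7d 3.92-fold, let-7a-1 2.66-fold and let-7g 2.17-fold) and 0 were at least 2-fold higher in lung. let-7e stood at 1.23-fold (interval 0.681 to 2.13) and let-7i at 0.507-fold. With TMM scaling 3 of 7 passed, let-7b, let-7d and let-7f-1, against 16.8% of all ends. Of the after-hairpin ends, 3 reached the depth (let-7b, let-7f-1 and let-7a-1), each through lung alone with 1076, 487 and 26 tags. All 3 were at least 2-fold higher in lung, a direction that most ends shared and that this filter favoured. The let-7a-1 call rests on the 3 tags that its 0 kidney tags allow. The let-7d end, with 3 tags in kidney and 1 in lung, did not reach the depth. The members' mature tags are counted as listed in these comparisons, and with unique tags alone 3 of 5 mature starts were at least 2-fold higher in kidney.

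Mature starts in brain also stood above those in lung for most members. Of 1354 ends tested, 3.62% were at least 2-fold higher in brain and 23.7% at least 2-fold higher in lung, and 97.5% of the ends had reached the minimum in lung alone. At mature starts 7 of 8 members were at least 2-fold higher in brain, with let-7e at 7.23-fold (interval 4.19 to 12.2), let-7f-1 at 6.76-fold, miR-98 at 6.08-fold, let-7a-1 at 4.96-fold, let-7g at 4.92-fold, let-7i at 3.45-fold and let-7d at 3.41-fold. The exception, let-7b, stood at 1.68-fold (1.31 to 2.13). With TMM scaling, which divides each ratio of brain over lung by 2.89, 3 of 8 passed (let-7e, let-7f-1 and miR-98) against 0.96% of all ends, and let-7b was at 0.582-fold. With unique tags alone 5 of 6 mature starts were at least 2-fold higher in brain. Among after-hairpin ends 3 had enough tags, each through lung alone. Of these, let-7b and let-7f-1 were at least 2-fold higher in lung. For let-7a-1 the 0 brain tags allow more than the lung level.

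The family gave most of the tags that read as a mature microRNA, except in spleen. Of 3923 tags matching the start of any of 1674 distinct RefSeq mature sequences, 2651 (67.6%, interval 66.1 to 69.0) were of the 8 members. MicroRNAs encoded at 2 locations of the same strand, or at more than 2 locations, are missing from this sum, because no such sequence was listed. The share was 86.5% in brain, 72.2% in ovary, 70.8% in kidney, 63.3% in lung, 58.9% in liver and 26.3% in spleen. let-7b led the 119 microRNAs with a tag (1753 exact tags), miR-26b was next (395), and let-7a (375), let-7f (184) and let-7d (130) followed.

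The after-hairpin end of the let-7 loci lay 1 nt from where most other microRNA loci had it. Drosha's cut, if it fell where RefSeq ends the 3p arm, would put the first tag base directly after that arm. At all 6 let-7 loci with tags the strongest end lay 1 nt earlier, on the last base of the annotated arm. Whether the annotated arm or the cut differs at these loci was not tested. The offset was the same without the lung library, at the 5 loci that still reached 3 tags, and the 1 tag that miR-98 kept lay at that offset too. In all, 43 located hairpins had at least 3 tags within 5 nt of the arm's end, and 16.3% of the 43 had their strongest end at this offset. The other 37 loci had it at the base directly after the arm in 28 cases (75.7%), 1 nt after that in 7, 2 nt after in 1 (miR-23a) and 1 nt before it in 1 (miR-214, with 110 tags). Without lung, 22 other loci remained, with 17 at the base directly after the arm, 4 at 1 nt after that and 1 at 1 nt before. The minimum of 3 tags and this comparison were chosen after the values had been seen, so the counts are a description.

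The fragment from the first mature base to the base before the strongest end was folded with RNAfold. The 3′ overhang, taken as unpaired 3′ bases minus unpaired 5′ bases of the folded fragment, was 1 nt at 6 of 6 let-7 loci, a length found at 22.5% of all 40 loci folded. Of the other 34 loci it was 0 nt at 1 locus, 1 nt at 3, 2 nt at 23, 3 nt at 6 and 4 nt at 1. Folded to the annotated arm end instead, the let-7 fragments had an overhang of 2 nt at 6 of 6 loci, as did 19 of the other 34. At every folded locus the overhangs at the arm end and at the strongest end differed by exactly the offset between these ends. The 1-nt overhang of the let-7 loci thus restates their offset and is not a separate observation. let-7e, which is known to lie outside the short-overhang group, had no after-hairpin tag, so its cut was not seen.

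**Figure D4:**
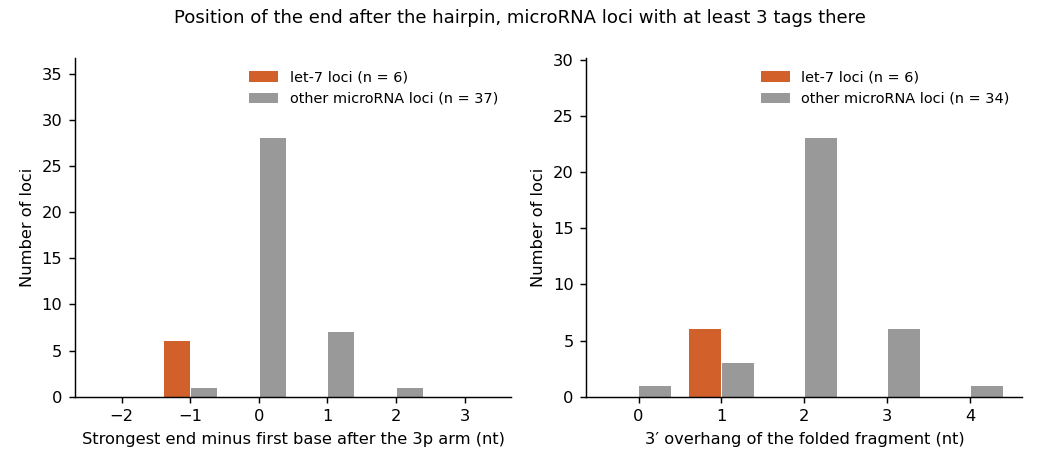
Number of microRNA loci by position of the strongest after-hairpin end relative to the first base after the RefSeq 3p arm (left, nt) and by 3′ overhang of the folded fragment (right, nt); orange bars are let-7 loci, grey bars other loci with at least 3 tags. All 6 let-7 loci are at -1 nt and at an overhang of 1 nt, while the grey bars peak at 0 nt (28 of 37) and 2 nt (23 of 34). The panels are not independent, because the overhang shifts with the position of the strongest end.

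Ends with a tissue pattern like the summed after-hairpin level were ranked by Pearson's r of log2(CPM + 10) over the 6 libraries. Of 172 ends with at least 100 tags and a tag in at least 4 libraries, 7 had r above 0.9. The highest were chromosome 17 plus strand position 35959789 (r = 0.964), chromosome 8 minus strand position 89365137 (r = 0.942) and chromosome 7 minus strand position 127986210 (r = 0.931), none of them near a located hairpin. These points share the 6 libraries and their depths, so the coefficients describe likeness only.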

How the data were processed

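Each library's deposited table lists distinct tag sequences with location, strand and, per the file headers and labels, the read count; these deposited counts were used as tag counts. The deposited score only repeats the read count on a capped scale and was not used as a measurement. Tags were aligned with Bowtie to mm9, per the submitters' processing notes; version and mismatch setting: not given in the sources used here. Tags of 20 or 21 nt made up 99.3% to 99.7% of each library. Minus-strand tags, written in reference orientation, were reverse complemented. A 5′ end is the first base on the plus strand and the last on the minus strand, counted from 1. Sequences listed at 2 locations (8.62% of tags in liver to 17.2% in spleen) were left out except where stated.

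Hairpin and mature sequences came from the RefSeq table of GRCm38.p6 and were placed in mm9 by their match to the tags. No mm9 annotation was used, so host transcripts of the hairpins were not analysed here. After-hairpin tags lie within 1 nt of the first base after the 3p arm. Shares have Clopper-Pearson, levels Poisson and ratios conditional binomial exact 95% intervals. Labels give 1 library per tissue, so no test was made. All 8 members are named, as are other window ends with at least 5 tags and the 3 ends most alike in pattern (pseudocount 10 CPM). The members, lists and alternatives were chosen with earlier results of these data known. TMM factors were computed directly from tags in 2 kb strand-specific windows. Their simulated test covered a composition shift and no other difference in depth. Software was Python 3.11.15, pandas 2.3.3, NumPy 2.4.6, SciPy 1.17.1, Matplotlib 3.10.9 and RNAfold 2.7.2, and calculations were tested on simulated data.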

Additional observations from a re-analysis of the deposited data

Results flagged for a closer look

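let-7b had 1.57 after-hairpin tags per mature-start tag in lung and 0.160 in kidney, the libraries with the most tags, and with 1 library per tissue this difference was not tested against replicates.

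Among sequences listed at 2 locations, which the unique counts leave out, 386 tags lay at the let-7a-1 mature start and 191 at the let-7f-1 mature start. Without them let-7f-1 would have no mature tag and let-7a-1 would have 1.

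Beyond the windows, in 2 kb on each side on the members' strands, 4 ends outside other members had 5 or more tags. An end 164 nt after the let-7b mature start (position 85537919) had 14 tags, with 8 in lung, 3 in kidney, 2 in brain and 1 in ovary. Ends 315 and 316 nt after the let-7d mature start (positions 48631153 and 48631152) had 11 and 10 tags, with 5 and 7 in lung and 5 and 2 in kidney. An end 451 nt after the let-7e mature start (position 17967781) had 14 tags, 10 of them in lung, and lies near the located hairpin miR-125a. Its counts in every library equal those of the tags that read as mature miR-125a-5p, also 14 in all.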

How the results depend on the processing

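Of 100 alternative values computed, 49 stayed within the counting interval of the reported value or, for counts of loci, within 1.5 times of it. Another 50 moved outside, and 1 reversed a ratio whose interval excludes 1. That ratio, brain over lung at the let-7b mature start, was 1.68 and, with TMM scaling, 0.582. This reversal rests on TMM factors whose dependence on depth was not tested. No paired analysis was possible because each tissue has 1 library and the shared replicate label names no pairing.

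Over the 8 loci, unique tags gave after-hairpin shares of 65.3% in lung, 16.2% in kidney, 58.3% in ovary, 22.2% in brain, 38.9% in liver and 57.7% in spleen. Keeping sequences listed at 2 locations gave 60.2% in lung, 13.8% in kidney, 50% in ovary, 15.2% in brain and 29.6% in liver. Counting each distinct end once gave 30% in brain, 50% in lung, 40% in kidney and 36.4% in ovary. Counting only the exact base after the annotated arm, which misses the strongest end by 1 nt, gave 1.16% in lung, 0.187% in kidney, 4% in ovary, 0.752% in brain, 1.49% in liver and 0% in spleen. With that exact base the let-7b ratio of ovary over lung was 5.63, and let-7f-1, let-7a-1, let-7d, let-7i and miR-98 gave no ratio because a library had 0 tags.

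TMM scaling moved that let-7b ratio to 0.430, the let-7f-1 ratio of lung over ovary to 2.71, and the summed after-hairpin level to 695.5 CPM in brain, 5742 in lung, 1552 in kidney and 2346 in ovary. It moved the summed ratio of kidney over brain from 1.248 to 2.498 at mature starts and from 1.12 to 2.23 at after-hairpin ends, and these, like the mature-start ratios, were added after the data had been seen. Without let-7b the summed level was 1071 CPM in lung, 326.6 in kidney, 1027 in ovary, 179.7 in brain, 76 in liver and 186 in spleen. Without let-7f-1 it was 2265 in lung, 961 in kidney and 2533 in ovary. These moves follow from leaving a locus out, while the cause of the TMM shifts was not tested.

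The after-hairpin share of window tags was 42.4% for let-7b and 20.6% without the lung library, 96.8% for let-7a-1 and 100% without lung, and with sequences at 2 locations kept it was 75.2% for let-7f-1 and 7.19% for let-7a-1. Members at least 2-fold higher in kidney than in lung at the mature start fell from 5 to 3 with TMM scaling and to 3 with unique tags alone, and those higher in brain from 7 to 3 with TMM; these settings were chosen after the data had been seen.

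Depth limits the small libraries most: spleen had 15 after-hairpin tags in all, and ovary, brain and liver 102, 38 and 42. Low counts leave the shares of let-7d, let-7i and miR-98 in single libraries open to wide intervals, and 0 tags at let-7e and let-7g bound a level without showing absence.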
